A study of Prunus persica with 24 samples.

Results

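Late storage of peach fruit at 25 °C, on days 6 and 7, was set against middle storage at the same temperature, on days 3 and 5. Peach (Prunus persica) fruit had first stood at 5 °C for 2 days, was then split at random between 25 and 35 °C, and RNA of the flesh was sequenced on days 1, 2, 3, 5, 6 and 7, with rRNA-depleted, directional libraries. The labels give 2 libraries for each temperature and day, so the comparison rests on 8 of 24 libraries, chosen by their temperature and day. The deposited tables hold 1 FPKM value (fragments scaled by transcript length and by the mapped fragments of the library) per gene for each temperature and day, so these 8 libraries appear as 4 of 12 value columns. The days are therefore the units of every comparison, and no value has an error between fruit or libraries. The middle group is 25 °C on days 3 and 5, the late group is 25 °C on days 6 and 7, and the counterpart at 35 °C uses the same days. The sources used here give neither the cultivar nor the number of fruit behind a library.

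Peach is a climacteric fruit, in which a burst of ethylene drives colour, aroma and softening after harvest. In melting-flesh peaches, pectin-degrading enzymes of the cell wall take a large part in the softening. Once the flesh is fully soft it passes into senescence, in which membranes and proteins are broken down and flavour is lost. The tables give gene identifiers without names or descriptions, and 0 of 26873 identifiers matched the gene table used here for names. Whether the late days carry known genes of senescence, or the libraries the markers of flesh, could therefore not be checked. The comparison is called late against middle storage, and genes are given by identifier.

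FPKM were summed over rows of one identifier and rescaled between columns by median-of-ratios factors of 0.922 to 1.06. Of the identifiers, 15420 reached at least 1 rescaled FPKM in at least 2 of 12 columns and were tested, and 600 of these share all their values with another identifier, so that their levels are uncertain. Differences between periods are those of log2(FPKM + 1), a scale that understates the differences of low genes. Read depth is unknown. In the 4 columns, 13462 to 13924 tested genes were at 1 FPKM or more, and the 10 most abundant identifiers took 14.7% to 19.0% of the deposited FPKM.

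Pairs of days were compared first, to see whether middle and late days lay further apart than days of one period. They did so only in part. Between the days of one period, 579 genes differed at least 2-fold from day 3 to day 5 (320 higher, 259 lower) and 825 from day 6 to day 7 (240 higher, 585 lower). Between a middle and a late day the number was 713 from day 3 to day 6 (281 higher, 432 lower), 1011 from day 3 to day 7 (303 higher, 708 lower), 1350 from day 5 to day 6 (542 higher, 808 lower) and 931 from day 5 to day 7 (190 higher, 741 lower). In flesh as a whole, fewer cells of a type and less RNA per cell cannot be told apart. Each of the 4 middle-to-late pairs had more lower than higher genes, as did day 6 to day 7. The pair of neighbouring days 5 and 6 held the most differences of the 6 pairs. Pearson's correlation across genes was 0.975 between days 3 and 5, 0.971 between days 6 and 7, and 0.958 to 0.969 between middle and late days, across genes that are not independent replicates. These counts set single values side by side and have no test.

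**Figure D1:**
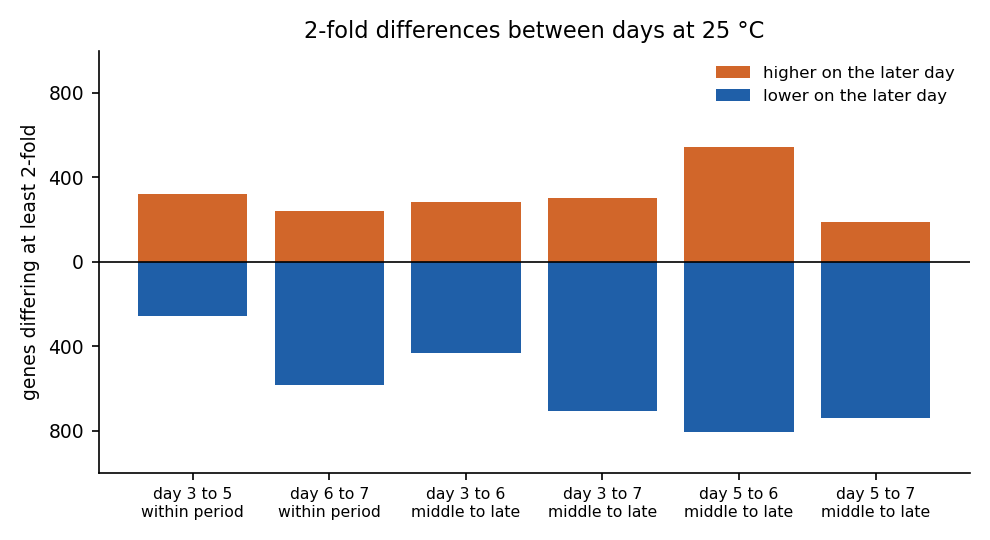
Number of genes that differed at least 2-fold between 2 days at 25 °C, with genes higher on the later day drawn upwards and genes lower on the later day drawn downwards, for the 2 pairs within a period and the 4 pairs between periods. Day 5 to day 6 has the tallest bars, 542 genes higher and 808 lower, and the pair within the late period, day 6 to day 7, has more lower genes, 585, than day 3 to day 6, 432.

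The mean of the late days was then tested against that of the middle days. No gene passed. In limma, 0 of 15420 genes (0.00%) had an adjusted p under 0.05, and the smallest adjusted p was 0.189. Before adjustment 1863 genes, or 12.1%, had a p under 0.05, where chance gives 771, and 692 of them were higher and 1171 lower late. The spread was that between the days of a period, pooled over both temperatures, so it holds any real change from day 3 to 5 or from day 6 to 7. The median difference over all genes was -0.0025 on the log2 scale. A linear slope over days 3, 5, 6 and 7 at 25 °C also called 0 genes.

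The count of 0 depended on single days. Without day 5 at 25 °C limma called 6 genes, 1 higher and 5 lower, with the lone middle day assumed to vary like the other groups. Without day 3 or day 5 at 35 °C, which enter the test through the scaling, the filter and the spread, the count changed too. The single higher gene without day 5 was Prupe.7G087400, named after its values were seen. It stood at 1.84 FPKM on day 3, 9.15 FPKM on day 5, 25.5 FPKM on day 6 and 35.4 FPKM on day 7. Days 5, 6 and 7 each lay above the listed day before, and days 1 and 2 were low like day 3, at 0.530 FPKM and 2.23 FPKM. With all days the log2 difference was 2.53 ± 0.51 (SE, limma adjusted p = 0.242), and without day 5 it was 3.45 ± 0.25 (limma adjusted p = 0.0409). Of the 5 lower genes the one with the smallest p was Prupe.5G139300, also named after its values were seen. It was at 14.2 FPKM on day 3 and listed at 0 on days 5, 6 and 7. All 5 were already lower on day 5 than on day 3, so their middle days differed from each other.

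Because the test called nothing, the strongest differences were described by size. A gene was counted when its late mean was at least 2-fold from its middle mean and both late days lay on the same side of both middle days. This held for 324 genes that were lower late, 2.10% of those tested, and for 68 that were higher, 0.441%. Without the demand for 2-fold, the periods did not overlap in 3605 genes that were lower late (23.4%) and 3343 that were higher (21.7%), so lower genes were in greater excess among the large differences. The 324 genes, called the lower set here, had a median log2 difference of -1.32, between -4.25 and -1.01. The 68 genes of the higher set had a median of 1.27, between 1.01 and 3.12. These medians come from the values that chose the genes and support nothing. The nearest genes just outside the limit were at -0.998 and 0.999, and those just inside at -1.01 and 1.01. Identical values leave 308 distinct measurements in the lower set and 66 in the higher set. At least 1 of the 4 days was listed at 0 in 19 genes of the lower set and in 0 of the higher set. In limma, 277 of the 324 and 65 of the 68 had a p under 0.05 before adjustment, against 12.1% of all tested genes, but the same values chose the genes and nothing is read from these counts.

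**Figure D2:**
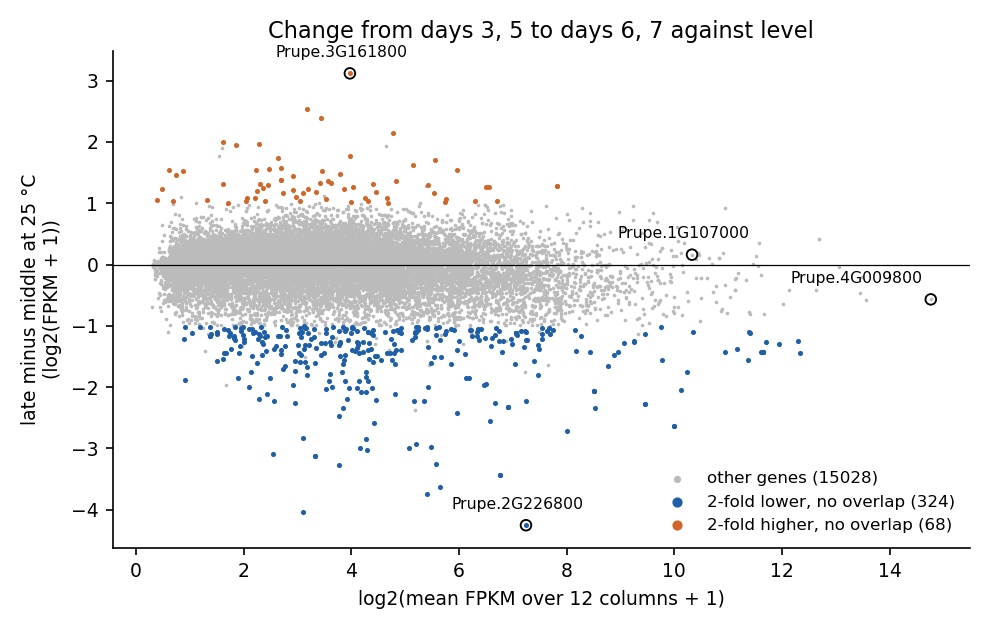
Late minus middle difference at 25 °C in log2(FPKM + 1) against the log2 of the mean FPKM over 12 columns plus 1, one point per tested gene, with the 324 genes of the lower set in blue, the 68 of the higher set in orange and the 4 genes chosen by rule circled. Of the 188 genes with a mean of 500 FPKM or more, 27 are blue and 0 are orange.

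Lower genes outnumbered higher ones under each scaling that was run. With FPKM as deposited the sets held 374 and 59 genes, and with quantile normalization 274 and 83. With 1 day of a period left out the limit is easier to pass, and the counts were larger: 609 lower and 200 higher without day 3, 421 and 172 without day 5, 605 and 158 without day 6, and 465 and 276 without day 7.

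In classes by mean level, abundant genes took a larger part in the lower set than rare ones. By the mean over 12 columns, 60 of 5217 genes under 5 FPKM were in the lower set (1.15%), 160 of 7802 genes at 5 to 50 FPKM (2.05%), 77 of 2213 at 50 to 500 FPKM (3.48%) and 27 of 188 at 500 FPKM or more (14.4%). The higher set held 22, 37, 9 and 0 genes of these classes. The median difference of the class of 500 FPKM or more was -0.30 on the log2 scale, and 141 of its 188 genes were below 0. The mean over 12 columns includes the middle days and the days before them. A gene that fell late could thus enter the top class through its earlier high values. The log scale also understates the differences of low genes, so rare genes reached the limit of the sets less easily. These shares therefore cannot tell whether abundance itself went with the lower late values. The scaling set the size of this pattern: as deposited, 30 of 189 such genes were in the lower set and 0 in the higher set, but with quantile normalization the numbers were 19 and 4 and the median was -0.05.

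The FPKM total was lower late as well. Over the tested genes the rescaled FPKM summed to 783612 on day 3 and 860018 on day 5, and to 673210 on day 6 and 719392 on day 7. Both late sums lay below both middle sums. The 188 genes of 500 FPKM or more made up 73.3% of the difference between the period means. These genes also held 372653 of the mean middle sum of 821815, and the mean that defines them includes the middle days. At 35 °C the sums were 668953 and 651570 on days 3 and 5, and 647406 and 724246 on days 6 and 7, which overlapped. A sum of FPKM depends on the lengths of the abundant transcripts and is not an amount of RNA.

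The 27 abundant genes of the lower set carry 22 distinct sets of values. At 25 °C their median was 1390 FPKM on day 3 (112 to 14186), 2462 FPKM on day 5 (28.1 to 12814), 420.0 FPKM on day 6 (8.24 to 4913) and 894 FPKM on day 7 (19.7 to 5288). The medians of both late days were below those of both middle days, and day 5 had the highest of the 4. The days at 35 °C entered the mean level of 500 FPKM but not the choice by period. At 35 °C the median was 561 FPKM on day 3 (42.4 to 4743) and 759 FPKM on day 5 (16.8 to 3682). It was 452 FPKM on day 6 (5.14 to 4255) and 560 FPKM on day 7 (190 to 6432). These medians lay closer together than those at 25 °C, where the choice itself asked for a difference between the periods. The median log2 difference of the 27 genes at 35 °C was 0.33, beside 0.11 for all genes of that abundance. At 35 °C 8 of 27 were below 0, against 50.3% of all tested genes. The share below 0 among all genes of that abundance was not counted. At least 2-fold lower at 35 °C were 0 of 27, but only 1.78% of all tested genes were, so this count is at the background.

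Single genes were chosen by one rule, the largest difference and the highest level in each direction, among genes whose periods did not overlap and whose higher period averaged at least 5 FPKM. None passed the test. The largest difference towards higher late values was that of Prupe.3G161800. Its level was 3.27 FPKM on day 3 and 6.87 FPKM on day 5, then at 40.5 FPKM on day 6 and 60.3 FPKM on day 7. Both late days were far above both middle days, and also above days 1 and 2, at 8.04 FPKM and 5.72 FPKM. The log2 difference was 3.12 ± 0.64 (SE, limma adjusted p = 0.242). The identifier has 2 rows in the table. The first went from 1.64 FPKM and 6.87 FPKM on the middle days to 23.3 FPKM and 45.5 FPKM on the late days, and the second from 1.63 FPKM and a listed 0 to 17.1 FPKM and 14.8 FPKM, so both rows were higher late. At 35 °C the gene stood at 2.74 FPKM, 6.38 FPKM, 18.1 FPKM and 3.99 FPKM on days 3, 5, 6 and 7. Day 6 was high there too, but so was day 2, at 18.5 FPKM, while day 7 lay between the middle days.

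The largest difference towards lower late values was that of Prupe.2G226800. It was at 423 FPKM on day 1, 509 FPKM on day 2, 82.6 FPKM on day 3 and 275 FPKM on day 5, and then at 11.9 FPKM on day 6 and 3.89 FPKM on day 7. The late days were below all others, and the middle days differed from each other, with a low on day 3 and a return on day 5. The log2 difference was -4.25 ± 0.72 (SE, limma adjusted p = 0.189). At 35 °C the values on days 3, 5, 6 and 7 were 74.6 FPKM, 41.5 FPKM, 24.5 FPKM and 62.0 FPKM, where the late and middle days overlapped. The difference of the changes, 25 minus 35 °C, was -3.75 on the log2 scale and did not pass (limma adjusted p = 0.283).

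The most abundant gene with lower late values was Prupe.4G009800. It stood at 46674 FPKM on day 3 and 51108 FPKM on day 5, and at 30717 FPKM on day 6 and 35285 FPKM on day 7. Its share of the rescaled FPKM of tested genes was 5.96% and 5.94% on the middle days and 4.56% and 4.90% on the late days. The groups did not overlap, but the log2 difference of -0.57 ± 0.65 was smaller than its SE (limma adjusted p = 0.754). With quantile normalization the difference was 0, because the top gene of each column receives one value. The most abundant gene with higher late values, Prupe.1G107000, was nearly level, at 1193 FPKM and 1346 FPKM on days 3 and 5 and 1401 FPKM and 1432 FPKM on days 6 and 7. Its log2 difference was 0.16 ± 0.29 (SE, limma adjusted p = 0.848), and 0.54 with quantile normalization. Day 1, at 1736 FPKM, lay above all 4.

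**Figure D3:**
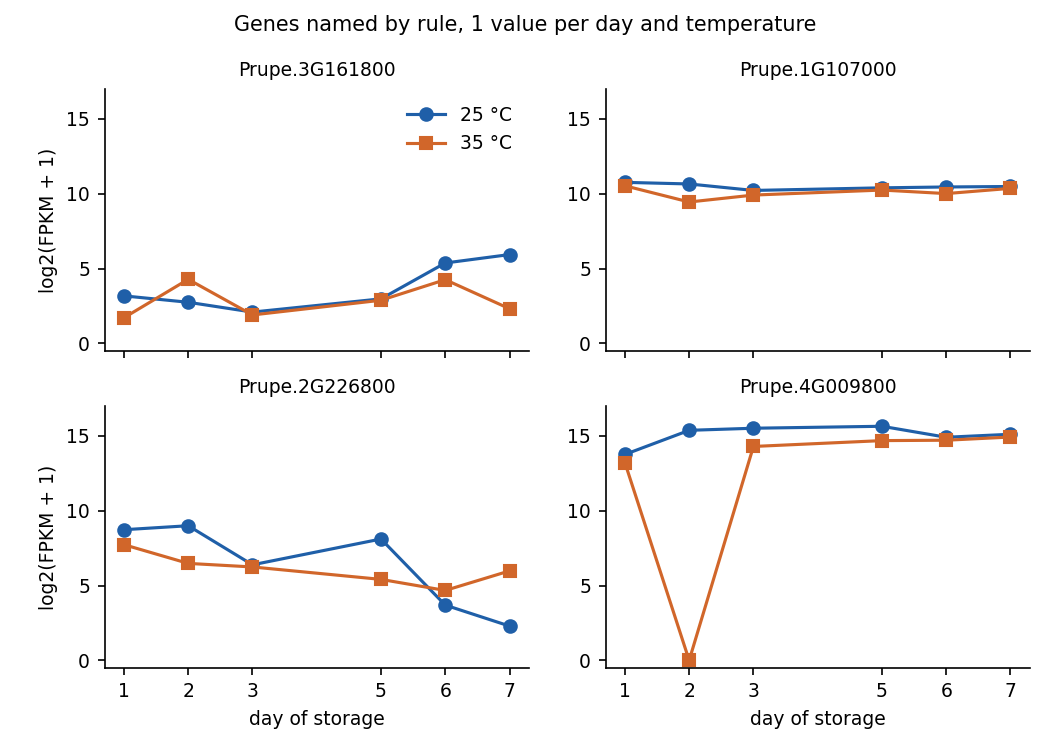
Log2(FPKM + 1) by day of storage for the 4 genes chosen by rule, at 25 °C in blue and 35 °C in orange, with 1 value per point and no error. Prupe.3G161800 is highest and Prupe.2G226800 lowest on days 6 and 7 at 25 °C, while Prupe.1G107000 and Prupe.4G009800 are almost flat over days 3 to 7 on this scale. Prupe.4G009800 is listed at 0 on day 2 at 35 °C, between 9478 FPKM on day 1 and 20059 FPKM on day 3. Whether a listed 0 is a true absence or a missing value was not tested.

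Days 1 and 2 at 25 °C did not enter the comparison and show where the genes came from. In the lower set the median level was 31.3 FPKM on day 1 and 30.4 FPKM on day 2, then 17.8 FPKM and 19.0 FPKM on days 3 and 5, and 6.14 FPKM and 5.30 FPKM on days 6 and 7. The set was thus highest early, lower in the middle and lowest late, while over all tested genes the median stayed between 8.55 FPKM and 9.59 FPKM. In the higher set the median was 6.46 FPKM on day 1, 7.01 FPKM on day 2, 4.74 FPKM and 4.99 FPKM on the middle days, and 14.5 FPKM and 15.7 FPKM on the late days. Its middle days, whose values helped to choose the genes, were the lowest of the course.

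The lower set held 3 kinds of earlier course. In 109 genes (33.6%) the middle mean was already at least 2-fold below day 1, against 9.69% of all tested genes, and their medians went from 49.8 FPKM on day 1 to 14.1 FPKM on day 3 and 2.67 FPKM on day 7. In 185 genes (57.1%, against 86.8% of all) the middle was within 2-fold of day 1, with medians of 25.5 FPKM on day 1, 25.4 FPKM on day 3 and 26.2 FPKM on day 5, and of 9.27 FPKM and 7.99 FPKM late. In these the drop in level lay between day 5 and day 6, as the choice by period required. In 30 genes (9.26%, against 3.55% of all) the middle was at least 2-fold above day 1, and in 24 of them the late mean was again within 2-fold of day 1. Their median was 2.70 FPKM on day 1, 14.3 FPKM and 22.1 FPKM on days 3 and 5, and 6.18 FPKM and 6.20 FPKM on days 6 and 7. Compared with day 1, the late mean was at least 2-fold lower in 224 of the 324 (69.1%), against 12.4% of all tested genes. The middle and late values chose the genes, so these shares describe them and test nothing.

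In the higher set, 16 of 68 genes (23.5%, against 9.69% of all) had a middle at least 2-fold below day 1, and their medians were 28.6 FPKM on day 1, 5.52 FPKM on day 3 and 13.8 FPKM on day 6, a return towards the first level. A further 41 were within 2-fold of day 1 in the middle and 11 were at least 2-fold above it. The 11 had medians of 3.21 FPKM on day 1, 10.2 FPKM on day 3, 9.69 FPKM on day 5, 28.6 FPKM on day 6 and 35.4 FPKM on day 7. The late mean was at least 2-fold above day 1 in 37 of the 68 (54.4%, against 3.89% of all), within 2-fold of it in 25 and at least 2-fold below it in 6. The middle and late values chose these genes as well, so the return and these shares describe them and test nothing.

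**Figure D4:**
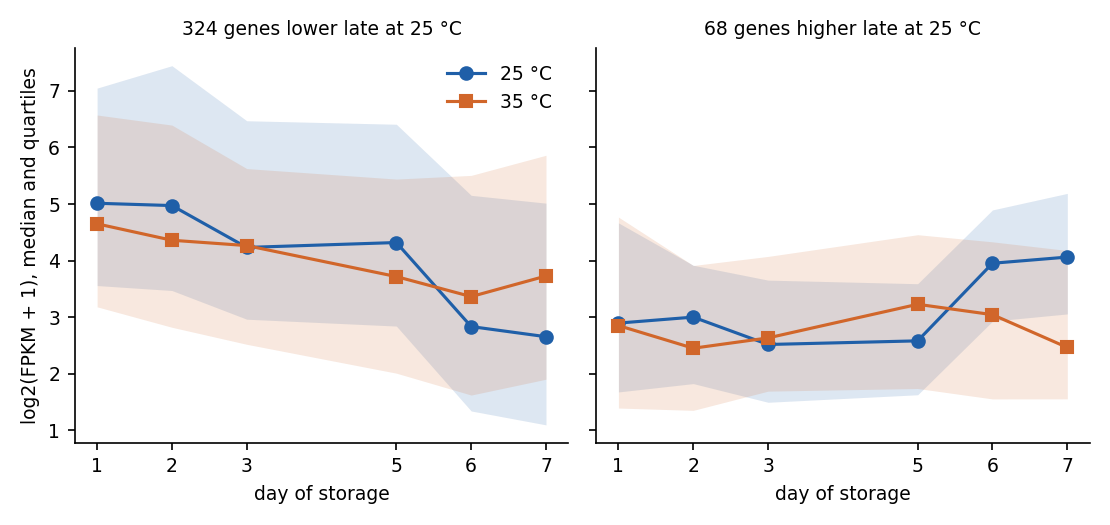
Median log2(FPKM + 1) by day for the 324 genes of the lower set (left) and the 68 of the higher set (right), at 25 °C in blue and 35 °C in orange, with the quartiles over genes shaded. The step between days 5 and 6 at 25 °C, by which the genes were chosen, is from 19.0 to 6.14 FPKM in the lower set and from 4.99 to 14.5 FPKM in the higher set, against 12.2 to 9.30 FPKM and 8.39 to 7.26 FPKM at 35 °C.

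Whether the same genes differed between the periods at 35 °C was asked next. The 35 °C columns took no part in the 25 °C means or in choosing the sets by period, but they share the scaling, the filter and the pooled spread of the test. Limma called 0 genes (0.00%) there too. Before adjustment 1080 genes (7.00%) had a p under 0.05, and after it the smallest p was 0.576. Without day 3 at 35 °C the count was 33. At 35 °C 237 genes were at least 2-fold lower without overlap (1.54%) and 44 were higher (0.285%). The lower set shared 26 genes with the 237, which is 8.02% of the lower set and 11% of the 237. The higher set shared 4 genes with the 44, 5.88% and 9.09% of each. Across all genes the late minus middle differences at the 2 temperatures had a Pearson correlation of -0.0185 and a Spearman correlation of -0.148, a description over 15420 genes that share libraries.

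The direction at 35 °C was shared by little more than the background in the lower set and by fewer in the higher set. In the lower set 179 of 324 genes (55.2%) were below 0 at 35 °C, against 50.3% of all tested genes, and the median there was -0.11 on the log2 scale. A difference of 2-fold downwards was found in 33 of the 324 (10.2%), against 1.78% of all tested genes, and one of 2-fold upwards in 4 (1.23%), against 0.357%. In the higher set 27 of 68 genes (39.7%) were above 0 at 35 °C, against 49.6% of all, with a median of -0.14. At least 2-fold higher were 4 of the 68 (5.88%), against 0.357% of all, and as many, 4 (5.88%), were at least 2-fold lower, against 1.78% of all. The numbers at 35 °C also differed by earlier course, which was not tested. Of the 109 genes already reduced in the middle, 81 were below 0 and 21 were 2-fold lower at 35 °C, with a median of -0.39. Of the 185 within 2-fold of day 1, 86 were below 0 and 10 were 2-fold lower, with a median of 0.04.

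The 4 genes that were at least 2-fold higher without overlap at both temperatures, named after their values were seen, were Prupe.1G043000, Prupe.1G311400, Prupe.6G217300 and Prupe.7G087400. Prupe.6G217300 was the most abundant of them on the late days. Its level at 25 °C was 9.28 FPKM on day 1 and 14.0 FPKM on day 2, followed by 22.4 FPKM and 49.5 FPKM on days 3 and 5, and 101 FPKM and 123 FPKM on days 6 and 7. Every day lay above the one before. At 35 °C it was at 36.3 FPKM and 25.6 FPKM on days 3 and 5 and at 60.1 FPKM and 81.3 FPKM on days 6 and 7. Its log2 difference was 1.71 ± 0.37 at 25 °C (SE, limma adjusted p = 0.250) and 1.17 ± 0.37 at 35 °C (limma adjusted p = 0.676). Prupe.1G311400 had another course, with 160 FPKM on day 1 at 25 °C, 6.77 FPKM on day 3 and 51.3 FPKM on day 7, and 289 FPKM, 15.8 FPKM and 70.2 FPKM on these days at 35 °C. It was high at the start, lowest in between and part of the way back by day 7 at both temperatures.

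The difference of the changes, 25 minus 35 °C, was tested in the same fit. Limma called 0 genes (0.00%), while 1886 (12.2%) had a p under 0.05 before adjustment, where chance gives 771. After adjustment the smallest p was 0.271. Of the lower set 149 genes and of the higher set 43 had such an unadjusted p, but the 25 °C values that enter the difference also chose the genes. With day as a block, which pairs the temperatures by day, limma again called 0. No gene can therefore be said to differ between the temperatures in its late change, and 0 calls are no sign that the changes were alike.

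In levels, 79.3% of the 324 genes of the lower set were higher at 25 than at 35 °C in the middle and 21.6% late, where 47.1% and 47.9% of all tested genes were. In the higher set 30 of 68 were higher at 25 °C in the middle and 61 late. The 25 °C values chose the genes and the temperatures lie in separate tables, so these counts are a description.

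**Figure D5:**
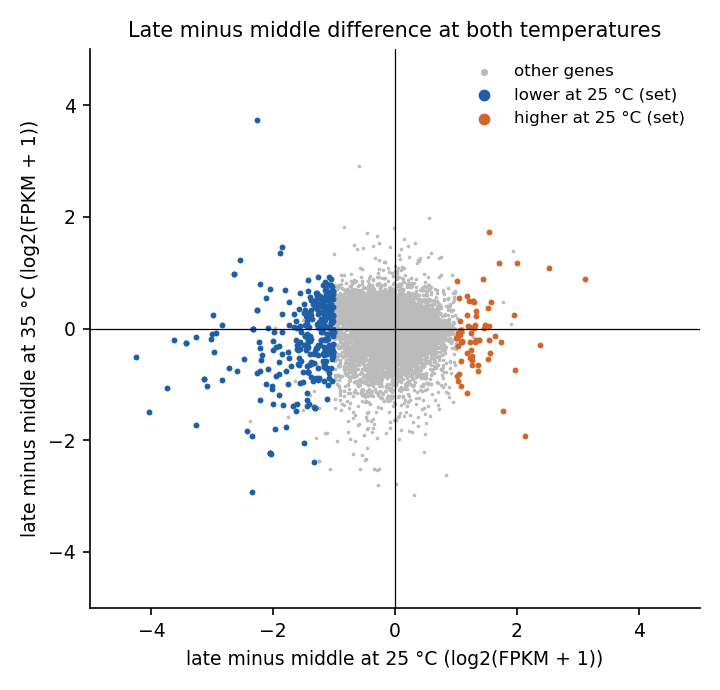
Late minus middle difference at 35 °C against that at 25 °C, both in log2(FPKM + 1), one point per tested gene, with the lower set in blue and the higher set in orange. Blue points lie on both sides of the horizontal line, 179 below and 145 above. Over all genes the Pearson correlation is -0.0185 and the Spearman correlation is -0.148.

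Some members of a set were listed next to each other. When the next tested identifier in table order, with the same prefix and other values, was looked up for each gene of the lower set, it was in the lower set too in 19 of 311 cases (6.11%), against 2.10% of all tested genes. For the higher set it was so in 5 of 67 cases (7.46%), against 0.441%. Neighbouring identifiers can be copies that share reads, and their part in this was not tested. Identifiers of the 8 numbered prefixes, from Prupe.1 to Prupe.8, had between 1.5% and 2.55% of their tested genes in the lower set, so no numbered prefix held the set. The small prefix Prupe.I had 2 of its 22 tested genes in it (9.09%).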

How the data were processed

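The authors deposited FPKM in 2 tables, one per temperature, with 6 columns each; 2 libraries stand behind a column, combined in a way that the sources used here do not state. The submitters' processing notes name Cufflinks 2.1.1, TopHat2 2.0.10, Bowtie2 2.1.0, FastQC 0.10.1 and SAMtools 0.1.18, with no role for any, and the labels' protocols give rRNA removal and directional libraries. The genome build and annotation, not given in the sources used here, were not needed. Without transcript lengths read numbers were not recovered from the FPKM, and no counting interval or floor is given.

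The 29300 rows were summed to 26873 identifiers, of which 2034 have more than 1 row. Factors came from the 12194 identifiers above 1 FPKM in every column. One fit with limma 3.58.1 (R 4.3.3; prior spread trended on the mean level) used the 8 columns of days 3, 5, 6 and 7 in 4 groups of 2 days. P-values measure spread between days, which may be technical or a change with time, and were adjusted by Benjamini-Hochberg over 15420 genes. The fit was tested on simulated data. The comparison, sets and rules were chosen with earlier results of these data known; the 2-fold sets without overlap were added once the test was seen to call nothing. Genes named by rule have separate periods, at least 5 FPKM in the higher one, and the largest difference or the highest level in their direction. The 18 gene lists written by product description matched 0 identifiers and were not used. Alternatives changed the pseudocount, filter, scaling, rows, groups of columns or days left out. The counts of the 2-fold sets under these alternatives, a run without genes listed at 0 and factors from the 25 °C columns alone were chosen after seeing the data.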

Additional observations from a re-analysis of the deposited data

Results flagged for a closer look

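In 5 named genes both late columns lay above both middle columns at one temperature and below them at the other, which is why they are listed; in each, the test of the difference did not pass in limma. For Prupe.4G009800 the change at 25 °C minus that at 35 °C was -0.90 on the log2 scale (limma adjusted p = 0.712), with levels of 20059 FPKM and 26303 FPKM in the middle and 26787 FPKM and 31057 FPKM late at 35 °C. For Prupe.2G039100, the 1 gene that was 2-fold lower at 25 °C and 2-fold higher at 35 °C without overlap, the difference was -3.24 (limma adjusted p = 0.271), and it was listed at 0 on both late days at 25 °C and both middle days at 35 °C. The other 3 were 2-fold higher at 25 °C and 2-fold lower at 35 °C without overlap. The difference was 2.33 for Prupe.5G216700 (limma adjusted p = 0.276), which on days 3, 5, 6 and 7 stood at 2.04 FPKM, 5.18 FPKM, 10.7 FPKM and 7.16 FPKM at 25 °C and at 8.44 FPKM, 14.1 FPKM, 4.55 FPKM and 4.14 FPKM at 35 °C. For the neighbouring identifiers Prupe.7G160500 and Prupe.7G160600 the differences were 3.24 (limma adjusted p = 0.320) and 4.07 (limma adjusted p = 0.317). At 25 °C both rested mainly on day 7, at 30.7 FPKM and 60.1 FPKM, after 6.58 FPKM and 7.58 FPKM on day 6.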

How the results depend on the processing

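No paired analysis was possible because each column pools the libraries of its day and has no replicate number, and so the fit with a replicate block was not run. Pairing by day was possible only between the temperatures, and with day as a block the difference of the changes had 0 calls. With no filter 2 genes were called at 35 °C. Leaving out 1 day gave 0 to 6 calls at 25 °C, 0 to 33 at 35 °C and 0 for the difference of the changes. The 2-fold sets without overlap then held 421 to 609 lower and 158 to 276 higher genes at 25 °C, and 338 to 436 and 118 to 128 at 35 °C. With a pseudocount of 0.1 the sets held 682 lower and 138 higher genes at 25 °C, among them all 324 and all 68, and 523 and 106 at 35 °C, and the steps at 25 °C held 1309 (day 3 to 5), 2352 (day 5 to 6) and 1556 (day 6 to 7) genes. The first of these was 383 when a mean of 5 FPKM or more was required. Under the other alternatives in which they were counted, these counts stayed within 1.5 times. The quantile set of 274 lower genes shares 271 with the 324. The 4 genes chosen by rule kept their direction, apart from the 0 of Prupe.4G009800, and were never called, with limma adjusted p from 0.145 upwards. The causes were not tested. The limits set by depth cannot be given, since FPKM carry none.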
